A study of Mus musculus with 12 samples.

Results

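The 10 genes described here encode the cytokines that define helper T cells: Il17a, Il17f, Il21, Il22 and Il9 of the Th17, follicular and Th9 programs, Ifng of Th1 cells, Il4 and Il13 of Th2 cells, and Csf2 and Il2, which activated T cells make more widely. They were taken by symbol from the 49671 genes of the files, and all 10 were found. Of these, 9 passed the filter on low counts that left 17977 genes for testing, and Il22 did not. RNA was measured in regulatory T cells (Tregs) of 8-week-old C57BL/6 mice that were wild type (WT) or, in the words of the labels, mutant for Gclc, the catalytic subunit of the enzyme that starts glutathione synthesis. Tregs were either taken straight from the mice (nTregs) or made in culture from naive CD4 T cells of the same genotypes (iTregs). The 4 groups were WT nTregs, mutant nTregs, WT iTregs and mutant iTregs, with 3 libraries each, numbered 1, 2 and 3 in WT and 1, 2 and 4 in mutants. The labels do not give the allele, any driver of a deletion, the culture conditions or how many animals stand behind a library, so p-values measure the spread between these libraries, which may be technical.

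Helper T cells are told apart by the cytokines they release. Each cytokine gene is switched on by T cell receptor signals that activate NFAT and AP-1, together with a lineage factor such as T-bet (Tbx21) for Ifng. Tregs normally keep most of these genes low, and the transcription factor Foxp3 takes part in that restraint.

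Several of the genes lie next to each other in the genome (GRCm38, as in the files). Il17a (chromosome 1, 20730905 to 20734496, plus strand) and Il17f (20777146 to 20790617, minus strand) are 42.6 kb apart with no annotated gene between them. Il2 (chromosome 3, 37120523 to 37125959) and Il21 (37222759 to 37232636), both on the minus strand, are 96.8 kb apart with 1 gene between them. Il4 (chromosome 11, 53602982 to 53618669) and Il13 (53631324 to 53634702), also on the minus strand, are 12.7 kb apart, and Csf2 (54247271 to 54249667) lies 612.6 kb beyond Il13. Il22 (chromosome 10, 118204942 to 118210047) and Ifng (118441047 to 118445892) share the plus strand 231 kb apart. Il9 (chromosome 13, 56479277 to 56482246, minus strand) has no other member near it. The 3 genes that overlap members (Gm12534, Gm12223 and Adad1) are on the opposite strand, and the counting used strand.

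The promoters of 4 members are shown because these genes turned out to differ between the 2 kinds of Treg: Il17a, Il17f and Il9 were far higher in iTregs, Il21 far higher in nTregs. The sequences are RefSeq's (GRCm38.p6), cover up to 250 bases before the start site and are written 5′ to 3′ on the gene's strand. Capitals mark the NFAT core GGAAA and the AP-1 motif TGANTCA on either strand. They stand for chr1:20730655-20730904 (Il17a, plus), chr1:20784271-20784494 (Il17f, minus), chr13:56482258-56482507 (Il9, minus) and chr3:37232637-37232886 (Il21, minus). The Il17f stretch is 224 bases long. Its 5′ end was cut where the files' annotation has an exon of a longer transcript, so it runs from there to the start site. It lies inside the gene as the files draw it.
Il17a: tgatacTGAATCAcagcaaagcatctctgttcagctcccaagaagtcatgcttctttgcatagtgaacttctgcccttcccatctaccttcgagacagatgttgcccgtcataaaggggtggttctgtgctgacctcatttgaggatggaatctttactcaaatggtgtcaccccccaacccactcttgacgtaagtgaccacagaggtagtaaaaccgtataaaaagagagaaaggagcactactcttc
Il17f: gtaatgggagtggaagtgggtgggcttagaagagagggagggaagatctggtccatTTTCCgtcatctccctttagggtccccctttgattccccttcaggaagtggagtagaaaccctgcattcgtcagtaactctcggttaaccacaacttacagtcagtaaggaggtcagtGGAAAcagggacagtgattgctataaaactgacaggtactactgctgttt
Il9: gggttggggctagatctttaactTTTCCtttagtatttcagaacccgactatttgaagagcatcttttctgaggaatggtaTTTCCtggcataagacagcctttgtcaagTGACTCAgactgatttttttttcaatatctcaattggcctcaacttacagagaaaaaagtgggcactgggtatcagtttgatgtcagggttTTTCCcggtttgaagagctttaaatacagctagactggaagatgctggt
Il21: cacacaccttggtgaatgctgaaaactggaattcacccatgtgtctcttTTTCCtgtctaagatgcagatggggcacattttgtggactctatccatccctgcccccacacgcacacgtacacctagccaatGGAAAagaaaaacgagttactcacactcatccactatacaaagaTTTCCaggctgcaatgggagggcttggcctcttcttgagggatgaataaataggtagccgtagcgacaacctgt
In the full 250-base windows, the Il9 promoter held 3 NFAT cores and 1 AP-1 motif, Il21 held 3 NFAT cores and no AP-1 motif, Il17f 2 NFAT cores, and Il17a 1 AP-1 motif and no NFAT core. Il21 held 2 matches of the T-box half-site AGGTGT (found in 11.8% of all 32817 promoters of the table), and of the other members Il22 held 1. The NFAT core was found in 9 of the 10 members, against 55.6% of all promoters, and the AP-1 motif in 2, against 6.75%. Il4 has 2 windows, with 0 and 5 NFAT cores. A member counts if any of its windows holds the motif, while the share over all promoters is per window. TATAAA was found in 6 members, against 12.4%. A match is a run of letters in the window and not a measured site, and motifs may overlap.

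The labels were checked first. Gclc was at 70.8 to 79 CPM (counts scaled to a common library total with TMM factors) in WT nTregs, 41.7 to 45.8 in mutant nTregs, 51.9 to 56.5 in WT iTregs and 18.8 to 21 in mutant iTregs. Foxp3, the defining factor of Tregs, was at 559 to 610.5 CPM in WT nTregs, 135 to 217 in mutant nTregs, 287 to 300.4 in WT iTregs and 75.5 to 107 in mutant iTregs. Library totals were 28.7 to 39.9 M counts. Library 1 of the mutant nTregs stood apart: its summed level of 13 CD8 T cell and NK cell markers was 1774 CPM, against 231 and 194 in mutant libraries 2 and 4 and 76.9 to 91.8 in WT nTregs. Genotype effects on the cytokine genes in nTregs are therefore given with and without it. The 10 B cell markers summed to 273 to 594 CPM over the 6 nTreg libraries and to 2.54 to 4.13 in iTregs. The 7 erythroid markers summed to 111 to 884 CPM in nTregs and to 0.0628 to 0.243 in iTregs. These are RNA levels of bulk samples, in which more cells that make a cytokine and more RNA per cell cannot be told apart.

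The make-up of the 10 cytokines differed between the 2 kinds of Treg. Levels of different genes are compared here as CPM per kb of exon. In WT nTregs the highest member was Il2 at 3.85 ± 0.532 CPM per kb (mean ± SD, n = 3), followed by Ifng at 2.32 ± 0.605 and Csf2 at 0.466 ± 0.0415. The ranges of Il2 and Ifng did not overlap, and neither did those of Ifng and Csf2. From Csf2 downwards each gene's range overlapped that of the next: Il4, Il21, Il13, Il17f, Il22 and Il17a followed, and Il9 had no count in any WT nTreg library. In WT iTregs the highest was Il17f at 15.9 ± 2.05 CPM per kb, then Il2 at 11.7 ± 2.76 and Il9 at 8.21 ± 2.6, with Csf2 at 2.63 ± 0.789. The ranges of Il17f and Il2 overlapped, as did those of Il2 and Il9, and Csf2 lay below all 3. Il17a was at 0.283 ± 0.121, and the other 5 members were at or below 0.0696.

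In mutant iTregs the same 4 genes were highest as in WT. Mutant iTregs had Il17f at 34.2 ± 10.7, Il9 at 25.7 ± 7.05, Il2 at 25.4 ± 12.8 and Csf2 at 11.5 ± 9.56 CPM per kb, and the ranges of neighbours in this order overlapped. Mutant nTregs had Ifng first at 22.9 ± 32.5, a mean set by library 1 (60.4, with 4.65 and 3.6 in libraries 2 and 4), then Il2 at 4.54 ± 0.243, Il21 at 1.35 ± 0.156 and Il13 at 1.15 ± 0.493. Summed over the 10 genes, the level was 6.56 to 8.62 CPM per kb in WT nTregs and 12.3 to 70.1 in mutant nTregs. It was 32.3 to 46.9 in WT iTregs and 71.4 to 144 in mutant iTregs, so within each kind of Treg every mutant library lay above every WT library. Il17f made up 37.7 to 43.8% of the sum in WT iTregs and 31.1 to 41.7% in mutant iTregs, and 0.0892 to 1.51% over the 6 nTreg libraries. Il2 made up 46.8 to 58.3% in WT nTregs. Ifng made up 86.1% in mutant nTreg library 1.

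**Figure D1:**
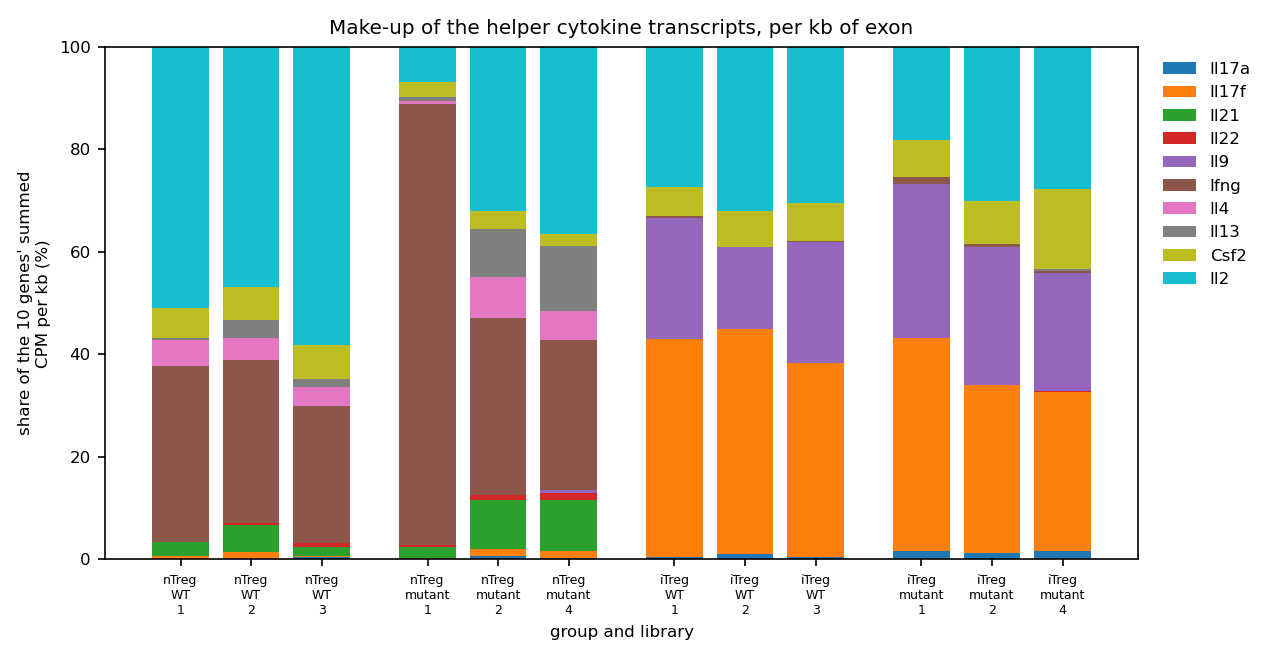
Share of each of the 10 cytokine genes in their summed CPM per kb of exon (%, vertical axis), 1 bar for each of the 12 libraries, grouped by kind of Treg and genotype (horizontal axis). Il2 and Ifng fill most of the WT nTreg bars, Il17f, Il2 and Il9 fill most of the iTreg bars, and Ifng takes 86.1% in mutant nTreg library 1.

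WT iTregs were compared with WT nTregs first, which shows how these genes differ between the kinds of Treg. Of the 9 tested members, 5 were higher in iTregs (Il17a, Il17f, Il9, Csf2 and Il2) and 3 were lower (Il21, Ifng and Il4) by edgeR's quasi-likelihood test with Benjamini-Hochberg adjustment over all genes, past a threshold of 0.05. Over all tested genes 69.5% passed, 33.7% higher and 35.7% lower, so passing is common in this comparison. Il17f was at 27.6, 33 and 35.8 CPM in WT iTregs and at 0.102, 0.202 and 0.031 CPM in WT nTregs. This log2 fold change came to 8.15 ± 0.40 (SE, 3 libraries against 3, edgeR adjusted p = 6.89e-09). Il9 gave 137, 111 and 219 counts in WT iTregs and none in WT nTregs, at least 135-fold higher against a floor of 3 counts over the group. Il17a gave 7, 17 and 11 counts in iTregs and 0, 0 and 1 in nTregs, a ratio of 30.4 with a 95% exact binomial interval of 5.1 to 1233 that covers counting error only (edgeR adjusted p = 0.000639).

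Csf2, which encodes GM-CSF, rose by 2.49 ± 0.75 on the log2 scale, and Il2, the T cell growth factor, by 1.60 ± 0.30 (edgeR adjusted p = 0.0101 and 0.000432). In the other direction, Il21, which helps B cells in germinal centres, was at 0.0599, 0.0286 and 0.027 CPM in WT iTregs and 1.29, 1.99 and 0.589 CPM in WT nTregs, a log2 fold change of -4.94 ± 0.61 (edgeR adjusted p = 1.34e-05). Ifng, the macrophage-activating interferon, was at 0.0898, 0 and 0.162 CPM in WT iTregs and 3.56, 2.73 and 2.11 CPM in WT nTregs (-4.97 ± 1.58, edgeR adjusted p = 0.0132). Il4, the Th2 cytokine that drives IgE responses, gave 1 count over the 3 WT iTreg libraries and 37 over the WT nTreg libraries (edgeR adjusted p = 0.000158). Il13, its neighbour, gave 1 and 14 counts and did not pass (edgeR adjusted p = 0.085). Of the 10 members, 5 were higher and 4 lower in every WT iTreg library than in every WT nTreg library, where 37.9% and 39.9% of tested genes were, and Il22 overlapped. WT nTregs carried B cell, erythroid and CD8 or NK cell markers that WT iTregs had at lower levels (Ncr1, an NK cell receptor, had no count in any iTreg library and 2.2 to 4.45 CPM in WT nTregs), and the part of those cells in the Ifng, Il21 and Il4 levels was not tested.

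Mutant iTregs against mutant nTregs gave 5 members higher (the same 5 symbols) and 4 lower, with Il13 now past the test (-2.50 ± 0.75, edgeR adjusted p = 0.00982). There 68.2% of all tested genes passed, 33.2% higher and 35% lower. Every library was higher for 5 members and lower for the other 5, against 33.6% and 35.2% of tested genes. Il17f differed by 7.82 ± 0.34 and Il21 by -6.58 ± 0.49 on the log2 scale. The Il17f difference was 7.42 without mutant nTreg library 1. Ifng differed by -5.22 ± 1.04, and by -2.84 ± 0.43 without mutant nTreg library 1.

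**Figure D2:**
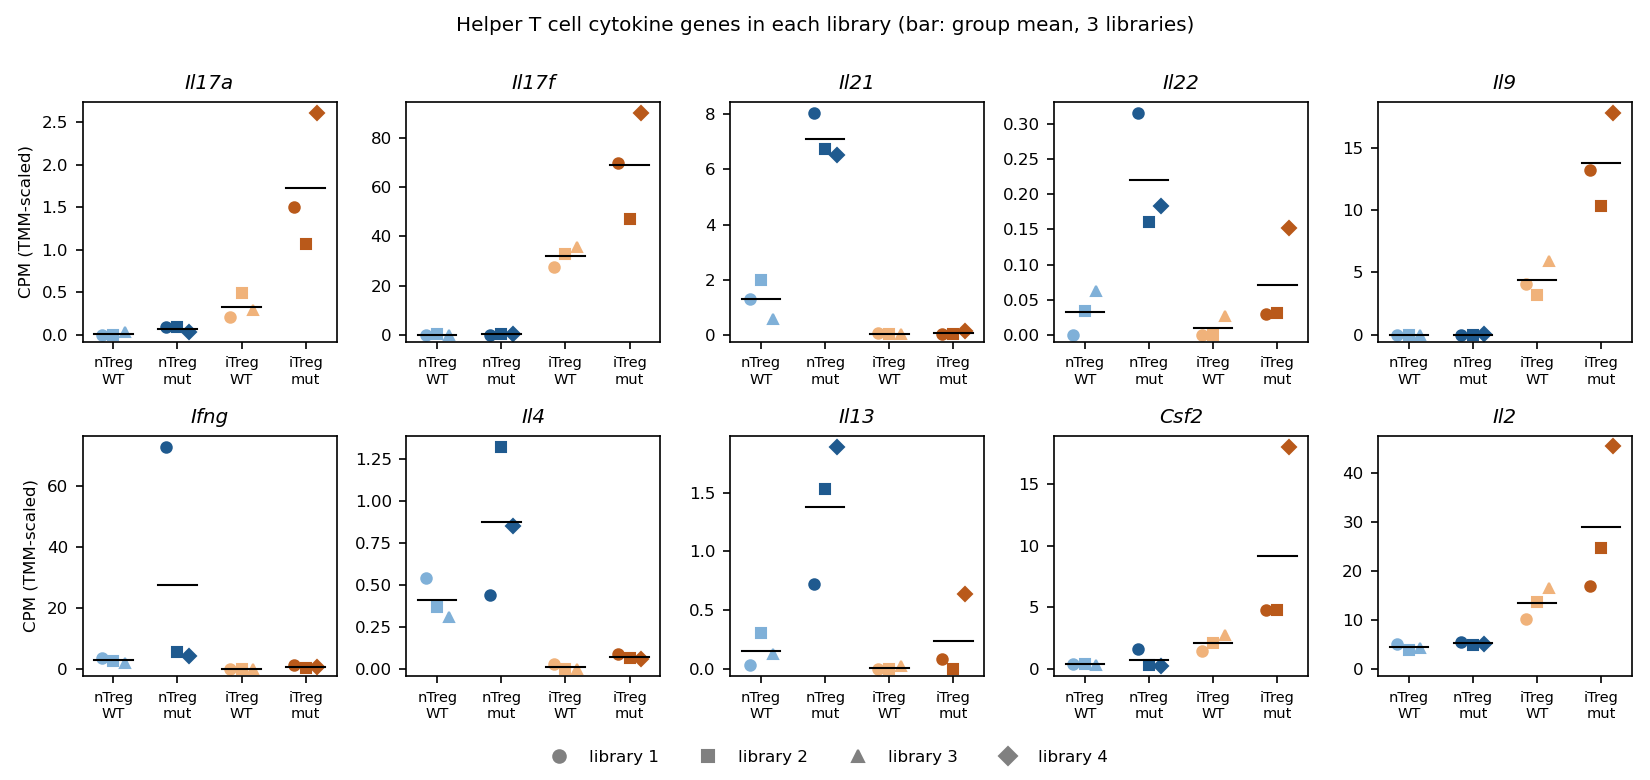
Level of each of the 10 cytokine genes (CPM scaled by TMM, vertical axis, linear and different for each gene) in the 12 libraries, by group (horizontal axis). Points are libraries, with the symbol giving the library number, and bars are means of 3. Mutant iTreg library 4 is the highest mutant iTreg library for 8 of the 10 genes, and the Ifng mean of mutant nTregs rests on library 1 at 72.8 CPM.

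The second comparison asks what the Gclc mutation changes in iTregs. Of the 9 tested members 5 rose (Il17a, Il17f, Il9, Csf2 and Il2) and none fell, against 14% of all tested genes that rose and 11.4% that fell. The tested members had a median log2 fold change of 2.12, from 0.84 to 4.22 (the highest, Il13, with 1 WT count), beside 0.04 over all tested genes. Of all 10 members, 8 were higher in every mutant iTreg library than in every WT one, where 26.8% of tested genes were, and none was lower in every one, where 19.7% were. For Il22 that rests on single counts. Il21 and Il13 were the members whose groups overlapped.

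Il17f, an IL-17 family cytokine that draws neutrophils to mucosa, was at 27.6, 33 and 35.8 CPM in WT iTregs and 69.7, 47.2 and 90.3 CPM in mutant iTregs. All 3 mutant libraries were above all 3 WT libraries, with library 2 nearest. Its log2 fold change was 1.10 ± 0.21 (edgeR adjusted p = 0.00392). Its paralog and neighbour Il17a was far less abundant, at 0.21, 0.487 and 0.297 CPM in WT and 1.5, 1.07 and 2.61 CPM in mutant iTregs, and again no libraries overlapped. Its log2 fold change was 2.37 ± 0.42 (edgeR adjusted p = 0.00271). Il9, a growth factor for mast cells, was at 4.1, 3.18 and 5.92 CPM in WT and 13.2, 10.3 and 17.8 CPM in mutant iTregs, a log2 fold change of 1.65 ± 0.26 (edgeR adjusted p = 0.00247). These 3 genes stayed past the threshold in every alternative that tested them, 18 for Il17a and 19 each for Il17f and Il9.

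Il2 was at 10.1, 13.6 and 16.4 CPM in WT and 17, 24.6 and 45.4 CPM in mutant iTregs. The highest WT library and the lowest mutant library lay close together, and mutant library 4 was the highest. The log2 fold change was 1.12 ± 0.28 (edgeR adjusted p = 0.0142), and the call was lost without WT library 1 (adjusted p = 0.0751) or WT library 2 (adjusted p = 0.052). Csf2 was at 1.47, 2.12 and 2.73 CPM in WT and 4.77, 4.8 and 18 CPM in mutant iTregs, so libraries 1 and 2 were close and library 4 stood well above them. The log2 fold change was 2.12 ± 0.58 (edgeR adjusted p = 0.0198). Without mutant library 4 it was 1.18 and did not pass (adjusted p = 0.105), and it did not pass without WT library 1 (adjusted p = 0.0915) or WT library 2 (adjusted p = 0.0722) either.

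The remaining members were rare in iTregs. Ifng gave 3, 0 and 6 counts in WT and 45, 11 and 17 counts in mutant iTregs, with no overlap, yet it did not pass (3.05 ± 1.92, edgeR adjusted p = 0.264). That fit shares 1 spread over the 4 groups, and Ifng varied most among mutant nTregs. Without mutant nTreg library 1 the same iTreg comparison gave 3.01 ± 0.70 and passed (adjusted p = 0.00579), where 17.2% of genes rose, and with the 6 iTreg libraries alone it passed too (adjusted p = 0.0165). Il13 gave 0, 0 and 1 counts in WT and 3, 0 and 21 counts in mutant iTregs, a ratio of 25.6 with an interval of 4.17 to 1052 that covers counting error only (edgeR adjusted p = 0.0681), and 21 of its 24 mutant counts came from library 4. Il4 gave 1, 0 and 0 counts in WT and 3, 2 and 2 in mutant iTregs, and Il22 gave 1 and 7 counts in all. Il21, at 4 and 7 counts, did not differ by the test (edgeR adjusted p = 0.585).

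Mutant iTreg library 4 held the highest of the 3 mutant values for 8 of 10 members, where it was highest for 34.6% of all tested genes. In the same library 8 of 8 Th17 markers (among them Ccr6, Il23r and Ccl20) were highest, and their summed level was 297 CPM, against 196 and 185 in mutant libraries 1 and 2 and 111 to 136 in WT iTregs. The summed CD8 and NK markers were 80.1, 68.8 and 99.6 CPM in mutant iTregs and 40.4 to 61.8 CPM in WT, with 3 of the 13 markers at 0 in each group. None of these 13 markers passed the edgeR test in iTregs (2 rose without mutant nTreg library 1), and their part in the cytokine levels was not tested.

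The third comparison is that of mutant with WT nTregs. Of the 9 tested members 4 rose (Il21, Ifng, Il13 and Il4) and none fell, against 19.3% of all tested genes that rose and 15.6% that fell. Without mutant library 1, 3 rose (Il21, Il13 and Il4), against 18.3% of genes. Of all 10 members, 4 were higher in every mutant nTreg library than in every WT one (Il21, Ifng, Il13 and Il22), where 25.7% of tested genes were, and none was lower in every one, where 22.6% were. Leaving out Il9, which had a single count in these 6 libraries, the tested members had a median log2 fold change of 1.92, from 0.24 to 3.30, beside 0.04 over all tested genes. With Il9 included the median was 1.80, and 1.78 without mutant library 1 (0.06 over all tested genes). Without that library the Ifng value of 3.30 fell to 0.87 and Csf2 was at -0.29.

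Il21 was at 1.29, 1.99 and 0.589 CPM in WT and 8.06, 6.75 and 6.54 CPM in mutant nTregs. The 3 mutant libraries were close together and all far above WT. The log2 fold change was 2.47 ± 0.33 (edgeR adjusted p = 0.000366) and 2.40 ± 0.35 without mutant library 1 (adjusted p = 0.000397), and it stayed past the threshold in all 19 alternatives.

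Il13, which drives mucus and alternative macrophage programs, was at 0.0339, 0.303 and 0.124 CPM in WT and 0.727, 1.53 and 1.89 CPM in mutant nTregs. Library 1 was the lowest mutant library here and still lay above all WT libraries. The log2 fold change was 3.15 ± 0.82 (edgeR adjusted p = 0.0108). It was 3.47 ± 0.78 without mutant library 1 (adjusted p = 0.00619), and it did not pass without WT library 1 (2.69, adjusted p = 0.0505).

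Il4 was at 0.543, 0.371 and 0.31 CPM in WT and 0.442, 1.32 and 0.852 CPM in mutant nTregs, so mutant library 1 lay inside the WT range. Its log2 fold change of 1.12 ± 0.41 was just past the threshold (edgeR adjusted p = 0.0497). It lost its call in 16 of 18 alternatives (adjusted p 0.00885 to 0.247 over all 18). Without mutant library 1 it was 1.46 ± 0.35 (adjusted p = 0.00885). The mast cell protease Cpa3 was at 26.4 CPM in mutant library 2, where Il4 was highest, at 5.35 in library 4 and 0.506 in library 1, and at 0.713 to 1.8 CPM in WT nTregs. The 9 ILC2 and mast cell markers together summed to 86.3, 115 and 55.1 CPM in mutant libraries 1, 2 and 4 and 50.5 to 79.9 CPM in WT, with 1 marker at 0 in mutants and 2 at 0 in WT. Of these 9 markers 4 passed the filter and 1 rose, Cpa3, where 19.3% of all tested genes rose. In mutant library 2, 6 of the 9 were highest, and in library 4, where Il13 was highest (1.89 CPM), 0 were. The part of ILC2 and mast cells in the Il4 and Il13 levels was not tested.

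Ifng was at 3.56, 2.73 and 2.11 CPM in WT nTregs and 72.8, 5.61 and 4.35 CPM in mutant nTregs. All mutant libraries were above all WT libraries, but library 1 exceeded the other mutants by far. The log2 fold change was 3.30 ± 0.90 (edgeR adjusted p = 0.0137). Without mutant library 1 it was 0.87 ± 0.38 and did not pass (adjusted p = 0.11), and it did not pass without WT library 3 (adjusted p = 0.0549) or with the 6 nTreg libraries alone (adjusted p = 0.0546). In mutant library 1, 12 of the 13 CD8 and NK markers were the highest of the 3 mutants. Cd8a, the CD8 co-receptor, was at 219 CPM there, with 19.1 and 27.2 CPM in the other mutants and 3.7 to 6.36 CPM in WT. Of the 13 markers 11 rose in mutant nTregs (19.3% of all tested genes did) and 8 without library 1 (18.3% did). None was at 0 in nTregs. Tbx21, the Th1 factor that CD8 and NK cells also express, was also highest in mutant library 1, at 64.6 CPM. It was at 11.4 and 10.2 CPM in the other mutants and 3.72 to 6.14 CPM in WT. Their part in the Ifng level was not tested.

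**Figure D3:**
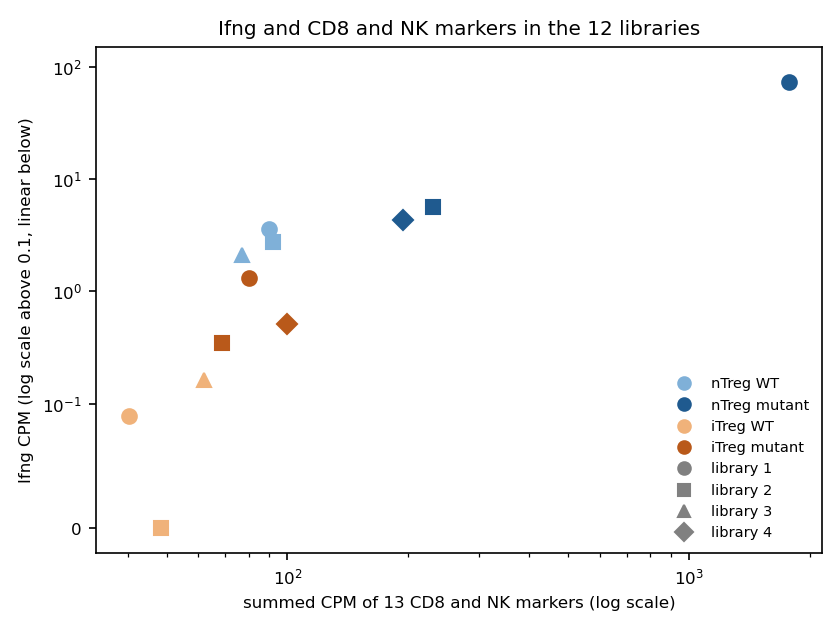
Ifng (CPM, vertical axis, log scale above 0.1 and linear below) against the summed CPM of 13 CD8 and NK cell markers (horizontal axis, log scale) in each of the 12 libraries. Mutant nTreg library 1 is at 1774 CPM of markers and 72.8 CPM of Ifng, away from every other library.

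The other members of nTregs did not pass. Il2 was at 5.02, 3.81 and 4.37 CPM in WT and 5.5, 4.95 and 5.14 CPM in mutant nTregs, overlapping ranges and a log2 fold change of 0.24 ± 0.31 (edgeR adjusted p = 0.584), and 0.23 ± 0.37 without mutant library 1 (adjusted p = 0.689). Csf2 was at 0.407, 0.371 and 0.341 CPM in WT and 1.61, 0.365 and 0.213 CPM in mutants. Mutant library 1 alone was above all WT libraries, and the log2 fold change of 0.92 ± 0.84 (edgeR adjusted p = 0.427) became -0.29 ± 0.95 without it (adjusted p = 0.85). Il17f gave 3, 6 and 1 counts in WT and 4, 18 and 11 in mutants (edgeR adjusted p = 0.167, and 0.153 without mutant library 1, DESeq2 adjusted p = 0.0363). Il17a gave 0, 0 and 1 against 3, 4 and 1 counts (edgeR adjusted p = 0.133, and 0.254 without mutant library 1).

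Il22, which acts on epithelium through IL-10Rβ and IL-22R, was too rare for the filter. It gave 0, 1 and 2 counts in WT nTregs and 10, 7 and 6 in mutant nTregs, a ratio of 6.47 with an interval of 1.95 to 33.7 that covers counting error only. In a fit with no filter its log2 fold change was 2.59 ± 0.87 (edgeR adjusted p = 0.0361). Without mutant library 1 its mutant mean was 0.171 CPM, with 0.0319 CPM in WT nTregs. Its near-identical copy Iltifb, 79.6 kb away, gave 0, 1 and 0 counts in WT and 10, 7 and 1 in mutants. Reads that map to several places were counted at each, so the values of both genes are uncertain.

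**Figure D4:**
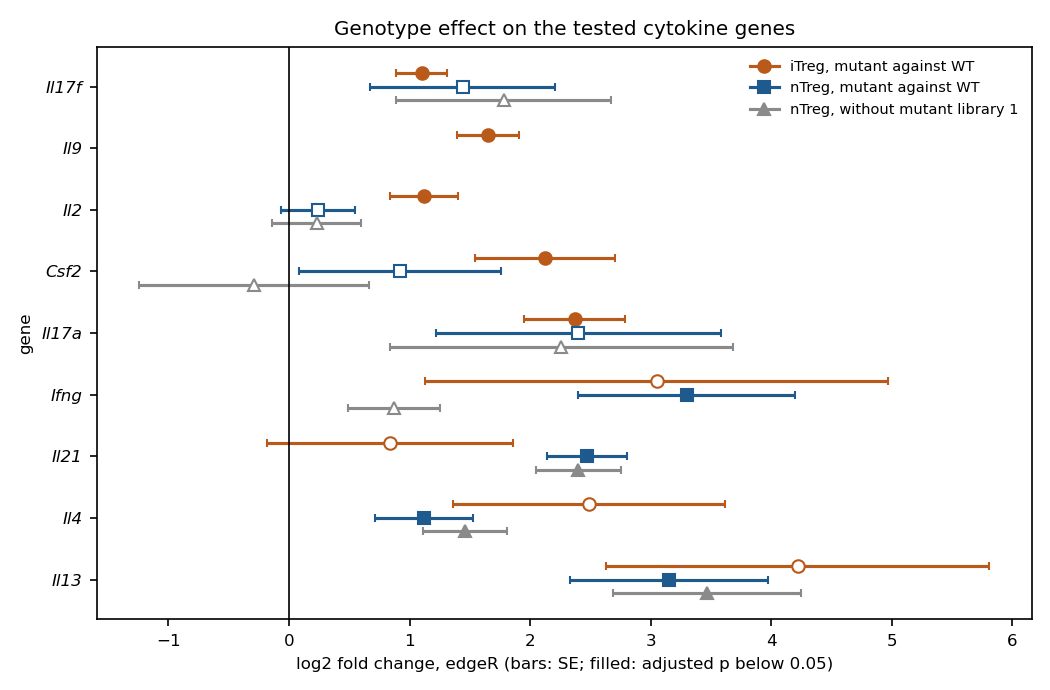
Log2 fold change of mutant against WT (horizontal axis, edgeR, bars SE) for the 9 tested cytokine genes (vertical axis), in iTregs, in nTregs and in nTregs without mutant library 1. The first sets have n = 3 against 3, and the last has 1 mutant library fewer. Filled points passed at an adjusted p of 0.05. Il9 is left out for nTregs, where it had a single count, and the values of Il17a in nTregs and of Il4 and Il13 in iTregs, with 1 count in WT, depend on the prior count of the fit. The Ifng value falls from 3.30 to 0.87 and that of Csf2 from 0.92 to -0.29 without mutant nTreg library 1.

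A gene that passes in one kind of Treg and not in the other is not shown to differ between them, so the difference itself was tested. Between the 2 genotype effects, 0 of 9 members passed with edgeR, where 13.3% of all tested genes did, 6.12% with a higher and 7.18% with a lower value in iTregs. None of the 9 had an unadjusted p under 0.05 either. The lowest was Il2, whose effect was larger in iTregs by 0.88 ± 0.42 on the log2 scale (edgeR adjusted p = 0.181). For Csf2 the difference was 1.21 ± 1.05 (edgeR adjusted p = 0.479). For Ifng it was -0.24 (edgeR adjusted p = 0.989), too near 0 for the kind of SE used here. Without mutant nTreg library 1 these were 2.37 ± 1.06 and 2.14 ± 0.83 (edgeR adjusted p = 0.145 and 0.0956). Several members had almost no counts in one kind of Treg. Il17a had 1 count and Il9 none in WT nTregs, and in WT iTregs Il4 and Il13 had 1 each and Il21 had 4. At such counts the test has little power, so for these members it shows neither a difference nor its absence.

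Of the 16 tested cytokine receptors, among 18 listed, 1 rose and 5 fell in mutant nTregs, with a median log2 fold change of -0.05. Over all tested genes 19.3% rose and 15.6% fell there. Il4ra, the receptor chain for IL-4 and IL-13, fell by 0.48 ± 0.08 (edgeR adjusted p = 0.00144). Il10rb and Il17ra, which serve IL-22 and the IL-17 cytokines, fell by 0.36 ± 0.07 and 0.40 ± 0.09, and Ifngr2 and Il17rc fell too (-0.66 ± 0.17 and -1.39 ± 0.46). Il17rc did not pass without library 1 (adjusted p = 0.102). Ifngr2 was at 14.8 CPM in library 1 and at 26.2 and 27.3 in mutant libraries 2 and 4. Without library 1 the mutant nTreg means of Il4ra, Il10rb, Il17ra and Ifngr2 were 133, 54.9, 136 and 26.7 CPM. In WT nTregs they were 175, 70.7, 168 and 36 CPM. Il13ra1 rose by 0.59 ± 0.21 (edgeR adjusted p = 0.0496). Without library 1 its mutant nTreg mean was 3.65 CPM, with 2.29 in WT nTregs. In mutant iTregs 2 rose and 1 fell, with a median of 0.21, where 14% of all tested genes rose and 11.4% fell. Il2ra, the high-affinity IL-2 receptor chain, rose by 0.31 ± 0.07 (edgeR adjusted p = 0.0098), and Il17ra fell by 0.46 ± 0.10. Csf2rb, the shared receptor chain for GM-CSF, gave 3 counts in WT and 53 in mutant iTregs (edgeR adjusted p = 0.0151). Without mutant nTreg library 1, 4 receptors rose and 5 fell in nTregs, and 3 rose and 3 fell in iTregs.

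All 44 listed transcription factors that set helper lineages or induce cytokines were tested. In mutant nTregs 10 rose and 8 fell (median 0.09), near the 19.3% and 15.6% of all tested genes, and 13 rose and 7 fell without library 1. Bhlhe40, which promotes GM-CSF and restrains IL-10, rose by 2.10 ± 0.32 (edgeR adjusted p = 0.000688), and by 1.53 ± 0.18 without library 1. Ahr, which induces Il22, rose by 1.38 ± 0.24 and Batf3, an AP-1 family factor, by 1.27 ± 0.21. Bcl6, the factor of follicular helper cells, fell by 0.75 ± 0.12, and Foxo1, which keeps T cells resting, fell by 0.80 ± 0.09. Without library 1 the log2 fold changes of Ahr, Batf3, Bcl6 and Foxo1 were 1.66, 1.30, -0.65 and -0.68, all past the test.

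In mutant iTregs 6 of the 44 factors rose and 4 fell (median 0.02), near the 14% and 11.4% of all tested genes. The counts were 9 and 5 without mutant nTreg library 1, and 4 and 5 where CPM were scaled by total counts only. Maf, which induces Il21 and Il10, rose by 0.75 ± 0.19 and Nfil3 by 0.51 ± 0.12 (edgeR adjusted p = 0.0153 and 0.0101). Rela and Stat5b fell by 0.48 ± 0.08 and 0.42 ± 0.08. Beside the marker counts that follow, 19.3% of all tested genes rose and 15.6% fell in mutant nTregs, and 14% and 11.4% in mutant iTregs. Of the 8 Th17 markers 2 rose in mutant iTregs and 3 fell in mutant nTregs (3 and 2 without mutant nTreg library 1). Of 8 Th1 markers 6 rose in nTregs and 3 in iTregs (5 without mutant nTreg library 1), and of 8 Th2 markers 1 rose and 2 fell in nTregs (2 and 2 without library 1) and 2 rose in iTregs. Of 8 tested follicular helper markers 1 fell in nTregs (2 rose and 1 fell without library 1), and 2 rose and 1 fell in iTregs. Of 10 Treg markers 1 rose and 2 fell in nTregs (1 and 1 without library 1), and 1 rose and 3 fell in iTregs (2 and 4 without that library).

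Other cytokines of T cells also moved. Of 33 tested, among 35 listed, 18 rose and 2 fell in mutant nTregs (median 0.94), against 19.3% and 15.6% of all tested genes. Without library 1, 18 rose and 1 fell. In mutant iTregs 11 rose and 3 fell (median 0.59), against 14% and 11.4% of all tested genes. Lif, a cytokine of the IL-6 family, rose by 2.01 ± 0.17 in nTregs and 0.50 ± 0.15 in iTregs (edgeR adjusted p = 5.46e-05 and 0.0285). Areg, a growth factor for tissue repair, rose by 1.78 ± 0.34 in nTregs (edgeR adjusted p = 0.0021, and 1.54 ± 0.33 without library 1) and gave 0.84 ± 0.35 in iTregs, which did not pass (adjusted p = 0.0926). Penk, the enkephalin precursor, rose by 0.92 ± 0.31 in nTregs and 3.18 ± 0.44 in iTregs. Without library 1 the mutant nTreg means of Lif and Penk were 21.3 and 68.5 CPM, with 5.5 and 36.4 CPM in WT nTregs. Ltb, a subunit of lymphotoxin, fell in both, by 0.24 ± 0.08 and 0.83 ± 0.08, though not past the test in nTregs without library 1 (adjusted p = 0.0776). The chemokine Ccl20, the ligand of the Th17 receptor Ccr6, rose by 2.10 ± 0.36 in iTregs, as did Tnfsf11, which encodes RANKL, by 1.45 ± 0.29, and Il1a by 1.81 ± 0.28.

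Il5 and Il3, picked after their values were seen because they are the other cytokine genes beside Il13 and Csf2, rose with their neighbours in part. Il5, the eosinophil growth factor 86.1 kb from Il13, was at 0, 0.135 and 0.031 CPM in WT and 0.6, 0.616 and 0.456 CPM in mutant nTregs, with no overlap (3.27 ± 0.94, edgeR adjusted p = 0.0175). Without mutant nTreg library 1 the mutant nTreg mean of Il5 was 0.536 CPM, with 0.0552 in WT. The iTreg values were 0.0599, 0.0859 and 0.189 CPM for WT and 0.647, 0.345 and 2.31 CPM for mutants (3.24 ± 0.75, edgeR adjusted p = 0.00959). Il3, 15.6 kb from Csf2, was at 0.688, 0.687 and 1.32 CPM in WT and 1.5, 2.67 and 4.43 CPM in mutant iTregs (1.66 ± 0.45, edgeR adjusted p = 0.0187), and gave 1 count in WT and 5 in mutant nTregs. Library 4 was again the highest mutant iTreg library for both.

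The genes whose log2 CPM followed a member most closely over the 12 libraries were listed among 11449 genes whose mean reached 1 CPM in any group, as a description, for the 8 members that reach that level. Il4 and Il22 do not. Irf4 followed Il17f (Pearson r 0.998), Pdpn followed Il9 (0.997), and Gabarapl1 followed Il17a (0.985). Gda and Cxcl9 followed Il21 (0.987 and 0.982), Emb and Runx2 followed Ifng (0.990 and 0.976), and Col18a1 followed Il13 (0.953). Jak2 followed Il2 (0.983) and Rap2a followed Csf2 (0.976). The 12 points fall into the 2 kinds of Treg, so these coefficients also hold the gap between nTregs and iTregs.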

How the data were processed

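Messenger RNA was measured in 12 libraries of 4 groups, assigned from the labels. The deposited values are gene counts, which the authors obtained from featureCounts 1.5.2, using Ensembl 87 exons (GRCm38) and the reverse strand, with multi-mapping reads counted at each alignment, per the file headers. Alignment was with STAR 2.5.2b, per the submitters' processing notes. Trimming and duplicate removal: not given in the sources used here. Of 49671 genes 49326 were matched to a symbol. Counts were tested with edgeR 4.0.16 (R 4.3.3): filterByExpr, TMM, 1 mean per group, 8 residual degrees of freedom, quasi-likelihood F-test, two-sided, Benjamini-Hochberg over all tested genes. CPM uses TMM library sizes, and CPM per kb uses the exon lengths of the files. SE of a log2 fold change stands for its absolute value over the square root of the F statistic. It was not fitted directly and is unreliable for log2 fold changes near 0. There were 5 comparisons. The fit was tested on simulated data. Alternatives were DESeq2 1.42.0, RLE or library-size scaling, keeping all genes or those at 1 CPM in at least 3 libraries, a block for replicate numbers, fits of only the 6 libraries compared, and fits without each library. The counting intervals, and setting 2 of these fits side by side for Ifng in iTregs, were chosen after seeing the data. Members and gene lists were chosen with earlier results of these data known. All 10 members were named, with Gclc, Foxp3, label markers, of each pathway list up to 6 genes of smallest adjusted p, and up to 3 genes most correlated with a member; some genes this rule picks are not reported here. Libraries of different groups that share a replicate number did not deviate together (correlations of deviations -0.064 to 0.05). They were fitted as unpaired. Low correlations do not show that such libraries came from different animals or days. No libraries were duplicates (chi-square per degree of freedom at least 4.48).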

Additional observations from a re-analysis of the deposited data

Results flagged for a closer look

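For none of the 9 tested cytokine genes did the mutant effect pass the test of a difference between iTregs and nTregs, and Il22 was not tested. It did pass for 11 other genes named here, given as the iTreg effect minus the nTreg effect on the log2 scale (edgeR, adjusted over all tested genes). The effect was more positive in iTregs for Pparg (3.88), Penk (2.26), Ccr6 (1.06), Foxo1 (0.79) and Il2ra (0.48). It was more negative in iTregs for Lif (-1.51), Mif (-1.47), Tnfsf8 (-1.10), Gclc (-0.65), Ltb (-0.58) and Rela (-0.48). Pparg gave 5 counts in WT and 53 in mutant iTregs, and 164 and 147 counts in WT and mutant nTregs. Mif fell by 0.55 ± 0.16 in mutant iTregs and rose by 0.92 ± 0.16 in mutant nTregs. All 11 differences include mutant nTreg library 1. Without it, the mutant nTreg means of Mif, Tnfsf8 and Foxo1 were 19.9, 216 and 187 CPM, with 12, 82.1 and 305 in WT nTregs. For Gclc, Il2ra, Ltb and Rela they were 42.5, 703, 151 and 59.1 CPM, with 76.2, 785, 179 and 58.3 in WT. For Pparg and Ccr6 they were 1.65 and 61.5 CPM, with 1.79 and 59.9 in WT. Lif and Penk are given above.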

How the results depend on the processing

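Over 39 fold changes of members, 670 alternative values kept direction and side of the threshold, 27 lost the call, 10 gained it and 6 changed sign. The sign changed for Csf2 in nTregs (-0.29 without nTreg mutant library 1, range to 1.30 with 1 library left out), for Il21 in iTregs (-0.29 without iTreg mutant library 4, range to 1.24), and for the difference of effects of Ifng: 0.56 with the replicate number as a block, 0.08 without iTreg mutant library 2, 0.66 without iTreg WT library 3 and 2.14 without nTreg mutant library 1 (range from -1.01). In nTregs 2 members passed with a filter of 1 CPM in 3 libraries, which leaves fewer genes tested, and 2 with the compared libraries alone. With the replicate number as a block, 3036 genes and 3 members passed in iTregs and 1471 genes for the difference. Csf2 and Il2 lost their calls in iTregs (1.73 and 0.92, edgeR adjusted p = 0.117 and 0.0518), as did Il4 in nTregs (0.88). Number 3 occurs only in WT and number 4 only in mutants. Within a block the genotypes therefore meet only at numbers 1 and 2. With 1 library left out, 4488 to 6554 genes and 2 to 3 members passed in nTregs, 1770 to 6260 genes and 3 to 6 members in iTregs, and 1104 to 3216 genes for the difference, where 0 members passed throughout. The lowest came without nTreg WT library 1, iTreg WT library 1 and nTreg WT library 2. The cause was not tested. Scaling by library size alone moved the share of calls that were higher from 55.4 to 65.4% in nTregs, 55.2 to 35.5% in iTregs, 46 to 17.8% for the difference and 48.7 to 36% between mutant kinds, and put the median of all genes at -0.14 for the difference and at -0.20, from -0.02, between mutant kinds; none of the 39 fold changes changed direction with it. A filter of 1 CPM gave 45% in iTregs and 34.4% for the difference. DESeq2 gave no p for Ifng in any of the 5 comparisons. The compared libraries alone were not run for the difference, which needs all 12. Depth limits Il4, Il13, Il17a, Il22 and Il9, which had a group of 3 counts or fewer.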
